A study of Mus musculus with 25 samples.

Results

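The step from NK1.1-negative to NK1.1-positive invariant natural killer T (iNKT) cells was described in mice that lack the kinase Mst1. The arrays were chosen by their genotype and stage label, 5 arrays labelled Mst1KO_S3 against 4 labelled Mst1KO_S1_S2, which are 9 of the 25 arrays of the series. Every value is a log2 RMA level of a transcript cluster on a Clariom S mouse array, so that a difference of 1 is a doubling. Wild-type arrays of the same stages, 7 labelled WT_S3 and 6 labelled WT_S1_S2, are set beside them. All Mst1KO arrays, 3 WT_S1_S2 arrays and 4 WT_S3 arrays carry the lower title numbers, called the first run here, and the other WT arrays lie in a second run of higher numbers, where the group labels start again. This division was made for this work and no label names a batch. Within the first run each group holds a block of neighbouring numbers, so if these blocks were handled apart, block and stage cannot be told apart in Mst1KO.

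iNKT cells are T lymphocytes with a nearly fixed T cell receptor that binds lipids held by CD1d. In the thymus they divide after selection, acquire CD44, and later stop dividing and take on NK1.1 together with many other natural killer (NK) cell receptors. Subsets within them are known as NKT1, NKT2 and NKT17, which make mainly interferon gamma, interleukin 4 and interleukin 17. Mst1, encoded by Stk4, is a core kinase of the Hippo pathway, which restrains growth in many tissues through the coactivators YAP and TAZ and which in lymphocytes also acts on adhesion and trafficking.

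The mice were C57BL/6, and the sources used here give neither their age, nor their sex, nor the way Mst1 was inactivated. All cells were sorted from thymus as T cell receptor beta positive, CD1d tetramer positive and CD24 negative. S1_S2 joins stage 1 (CD44 negative) and stage 2 (CD44 positive), both without NK1.1, and S3 cells carry CD44 and NK1.1. The mix of stages 1 and 2 on an array is not known. No label ties an array to an animal of its own. All p-values below therefore rest on the spread between arrays alone, and that spread may be technical. In sorted bulk cells, fewer cells of a subset and less RNA per cell cannot be told apart. The number of arrays limits the precision of every value.

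The sort and the genotype were checked on the 9 arrays. Klrb1c, the gene of NK1.1, lay between 8.79 and 8.99 on the S1_S2 arrays and between 12.22 and 12.56 on the S3 arrays, and Cd44 between 9.76 and 10.12 and between 10.73 and 10.98. The sort fixed both differences. Cd24a was above the negative control probes on 0 of the 9 arrays, and the T cell receptor subunit gene Cd3e was above them on all 9. Stk4 read 9.40, 9.31, 9.22 and 9.31 on the Mst1KO S1_S2 arrays and 9.64, 10.13, 9.43, 9.58 and 9.91 on the Mst1KO S3 arrays, against 10.18 to 10.74 and 9.69 to 10.73 on the WT arrays of these stages. Within Mst1KO it differed between stages by 0.43 ± 0.16 (SE; limma adjusted p = 0.088), which passed without S3 replicate 3 (0.50, adjusted p = 0.049). The sources used here do not place the Stk4 probes inside or outside the deleted part. Replicates 3 and 4 of each Mst1KO stage lacked the signal of 3 Y-linked genes (means of 4.74 to 4.84, against 7.36 to 7.81 on the other 5 Mst1KO arrays), while all WT arrays had it, so arrays without it made up 2 of 4 at S1_S2 and 2 of 5 at S3.

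Without Mst1 most of the stage program ran in the same direction as in WT cells. From S1_S2 to S3, 1240 of 22206 clusters rose (5.58% of those tested) and 1026 fell (4.62%) at a limma adjusted p under 0.05, and 227 of the rises and 180 of the falls were at least 2-fold. The WT step, with more arrays, had 1817 rises (8.18%) and 1943 falls (8.75%). Centring each array on its own median turned the split of the Mst1KO calls from 54.7% to 68.1% higher (1544 rises and 722 falls), although the median change of all clusters moved only from -0.04 to 0.01. The S3 and S1_S2 arrays did not overlap for 14.1% of all clusters. The Mst1KO and WT steps rest on separate arrays. They had 1608 calls in common in the same direction, which is 71% of the Mst1KO calls and 42.8% of the WT calls, and 2 calls in opposite directions, Lmna and Mrs2 (Mrs2 is named because of this count). Across clusters, which are not independent replicates, the sizes of the 2 steps correlated at r = 0.80.

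Of 568 clusters that changed at least 2-fold in WT, 563 had the same sign in Mst1KO and 466 were called there. Over all 22206 clusters, 14638 had the same sign in both steps. The step was the smaller in Mst1KO for 460 of the 568, which were chosen by their size in WT. A cluster called in WT but not in Mst1KO is not thereby shown to differ: of 2150 such clusters 13 passed the test of the difference between the steps, and of 656 called in Mst1KO alone 4 did. That test passed for 35 clusters in all, 0.158% of those tested, of which 20 had a higher and 15 a lower value of the Mst1KO step minus the WT step, and 31 carry a gene symbol. With arrays centred on their medians the split moved from 57.1% to 72.7% higher (24 higher and 9 lower). At an unadjusted p under 0.05 it took 2107 clusters. The call held for 12 of the 35 when any 1 of the 22 arrays was left out, and 0 passed with only the arrays that have Y-linked signal, which leaves 5 Mst1KO arrays (1504 at an unadjusted p under 0.05). With first-run arrays alone, 10 clusters passed, among them Gzma, Ccr9, Ly6c2 and Ly6c1. The calls of the following genes were lost there at nearly the same size: Mki67 at 1.2 (adjusted p = 0.099), Lmna at 1.02 (0.050), Pdlim1 at 1.23 (0.088), Qpct at -0.76 (0.14), Itgae at -0.99 (0.20), Itga2 at 1.43 (0.12) and Ppp1r3b at -1.2 (0.095). Those of S1pr1 at 0.93 (limma adjusted p = 0.14) and Kif15 (0.22) were lost as well. With only the arrays that have Y-linked signal, Gzma, Ccr9, Ly6c2 and Ly6c1 differed by -2.42, 1.34, -0.91 and -0.8, without passing.

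To set the steps side by side without the arrays that define the program, clusters were chosen from the second-run WT arrays only, which left Mst1KO and first-run WT arrays to measure them. The 956 clusters that rose there had a median rise of 0.49 in Mst1KO and 0.60 in first-run WT. Of these, 95.8% had the same sign in Mst1KO and 66.8% were called, against 96.2% and 70.9% in first-run WT, and the rise was the smaller in Mst1KO for 62.4%. The 1103 clusters that fell had medians of -0.44 and -0.53, with 97.1% of the same sign in Mst1KO. Calls among them were fewer in Mst1KO, 50.9% against 59.7%, and the fall was the smaller in Mst1KO for 71.1% of these clusters. The 45 cell cycle genes among the fallen clusters had medians of -0.98 in Mst1KO and -1.51 in first-run WT and fell less for 42 of them. The other 1058 fallen clusters had medians of -0.42 and -0.50. All these clusters were chosen in WT, which favours clusters with a larger step in WT. No program was chosen from Mst1KO arrays, so the shares with a smaller step in Mst1KO have no counterpart.

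**Figure D1:**
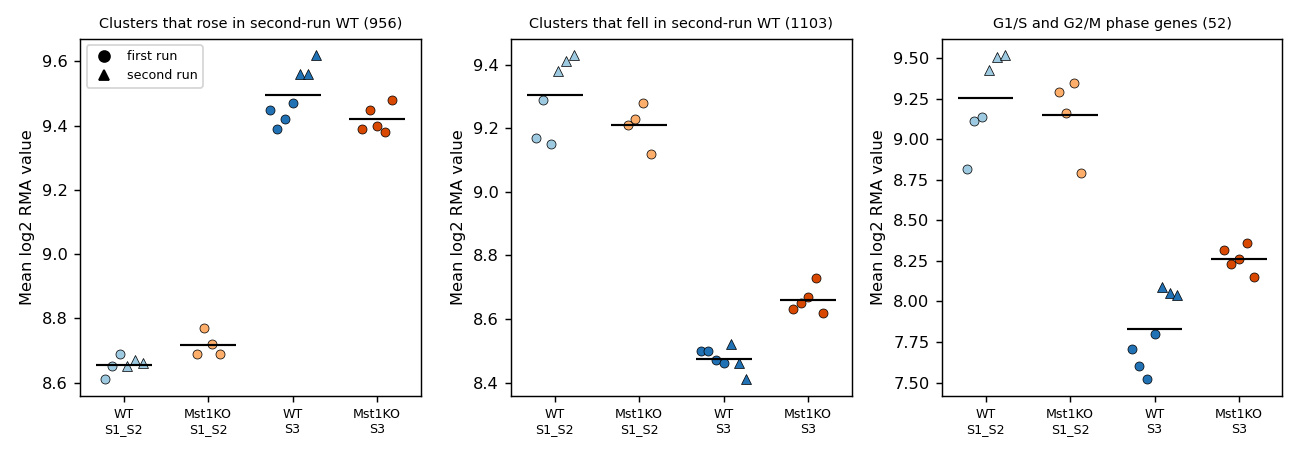
Mean log2 RMA level per array of the 956 clusters that rose and the 1103 that fell in second-run WT, and of 52 cell cycle genes, by genotype and stage; circles are first-run and triangles second-run arrays, and black lines are group means. The second-run WT arrays chose the first pair of sets. Mst1KO S3 arrays reach the level of first-run WT S3 arrays in the risen clusters, lie above all WT S3 arrays in the fallen clusters, and lie at 8.15 to 8.36 in the cell cycle genes.

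On single arrays, the mean of the risen clusters was 8.69 to 8.77 at Mst1KO S1_S2 and 9.38 to 9.48 at Mst1KO S3, and first-run WT S3 arrays lay at 9.39 to 9.47. The mean of the fallen clusters was 9.12 to 9.28 at Mst1KO S1_S2 and 8.62 to 8.73 at Mst1KO S3, above the 8.46 to 8.50 of first-run WT S3 arrays with no overlap. The first mean minus the second gave each array a stage score, which was -0.57 to -0.43 at Mst1KO S1_S2 and 0.66 to 0.86 at Mst1KO S3. It was -0.64 to -0.45 in first-run WT S1_S2 and 0.89 to 1.01 in first-run WT S3. The genotypes thus overlapped in this score at S1_S2 and did not at S3, where every Mst1KO array scored lower. The score is built from clusters chosen in WT. At S3 the means of the risen clusters overlapped between Mst1KO and first-run WT, and only those of the fallen clusters lay apart.

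**Figure D2:**
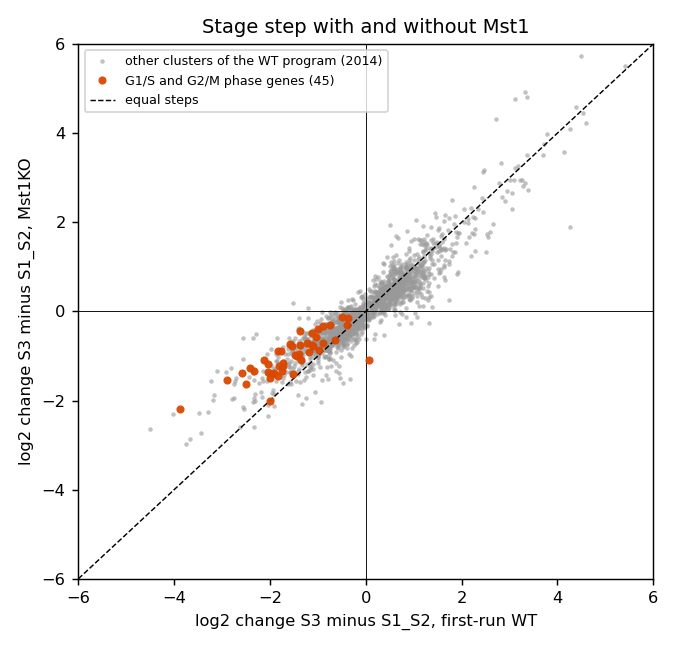
Stage step (log2 change, S3 minus S1_S2) in Mst1KO against first-run WT for the 2059 clusters of the program chosen in second-run WT; each point is a cluster, orange points are 45 cell cycle genes and the dashed line marks equal steps. Points lie mostly in the quadrants of equal sign, and 42 of the 45 cell cycle genes lie above the dashed line, where the fall is smaller in Mst1KO.

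NK receptors had the largest median rise among the lists counted. Of 21 measured, 17 rose in Mst1KO and 0 fell, with a median change of 3.52, against 20 rises and a median of 3.24 in WT. Klre1, a lectin-like NK receptor, read 7.03, 7.47, 6.86 and 6.43 at S1_S2 and 12.41, 12.45, 12.42, 12.43 and 12.52 at S3. The S3 arrays lay within a range far narrower than the S1_S2 arrays and above all WT S3 arrays (11.93 to 12.31). The change was 5.50 ± 0.20 (SE) in Mst1KO and 5.64 in WT, and their difference of -0.14 had a 95% interval from -0.67 to 0.39. Mst1KO S1_S2 replicate 4 lay below its negative control median of 6.55, so the fold is less exact than its error.

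The genes of the NKG2 and CD94 receptors rose as well. Klrk1, which encodes the activating receptor NKG2D, was above the negative controls on none of the 4 S1_S2 arrays and read 10.68, 11.02, 10.91, 10.69 and 10.87 at S3, a log2 rise of at least 4.33 over the control level (limma adjusted p = 4.5e-11). Klrc1, which encodes NKG2A, rose by at least 4.35 on the same scale (adjusted p = 1.9e-08), from S1_S2 arrays that were also all at control level. Klrd1, the CD94 chain that pairs with NKG2 proteins, read 7.88 to 8.31 at S1_S2 and 12.06 to 12.26 at S3, a change of 4.09 ± 0.41. Klra9, a member of the Ly49 family of receptors for MHC class I, rose from 6.05 to 7.25 at S1_S2 to 10.95 to 11.25 at S3, a change of 4.45 ± 0.17. Its lowest S1_S2 value lay below the negative control medians of those arrays (6.43 to 6.55), so its fold is less exact than its error. The steps of Klrd1 and Klra9 differed from WT by -0.12 (95% interval -1.23 to 0.99) and 0.12 (-0.35 to 0.59). Those of Klrk1 and Klrc1 were larger than in WT by 1.25 and 0.98 in the fit. Their Mst1KO S1_S2 arrays at control level make these sizes inexact, and neither passed (limma adjusted p = 0.26 and 0.66).

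Of 10 genes for NK-type adaptors, which carry signals for such receptors, and Fc receptors, 4 rose, 0 fell and 6 were not called in Mst1KO. The 4 were Tyrobp, Fcer1g, Hcst and the Fc receptor gene Fcgr3. Tyrobp, the adaptor DAP12, read 6.63 to 6.98 at S1_S2 and 9.11 to 9.56 at S3, a change of 2.51 ± 0.12, while the WT S3 arrays lay at 8.26 to 8.82, below every Mst1KO S3 array. The difference between the steps, 0.65 (95% interval 0.32 to 0.97), did not pass (limma adjusted p = 0.12). Fcer1g, the Fc receptor gamma chain, rose by 2.73 ± 0.19 and Hcst, the adaptor DAP10, by 0.54 ± 0.09. Of the 4 S1_S2 arrays, 1 had Fcer1g above the negative controls, so its fold is less exact than its error.

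The killing machinery rose in part at WT size and in part not. Of 19 cytotoxic effector genes 10 rose and 0 fell in Mst1KO (median 0.79; 1.36 over the members brighter than the negative controls), and 11 rose in WT (median 0.84). Gzmb, the protease granzyme B, read 7.92, 8.36, 8.29 and 7.67 at S1_S2 and 12.28, 12.26, 12.33, 12.30 and 12.32 at S3. No S1_S2 array came near an S3 array, and the change of 4.24 ± 0.29 (limma adjusted p = 4.4e-10) differed from the WT step by -0.37 (95% interval -1.16 to 0.41). Prf1, the pore former perforin, rose by 2.65 ± 0.23 against 3.30 in WT, and Fasl, the death ligand, by 2.29 ± 0.17 against 3.08. Their differences of -0.65 and -0.79 did not pass (limma adjusted p = 0.51 and 0.20). Gzmc, another granzyme, rose by 2.78 ± 0.20, and its Mst1KO S3 arrays (8.77 to 9.32) lay above all WT S3 arrays (7.44 to 8.38).

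Gzma, granzyme A, was the exception among the granzymes. It read 6.57, 6.93, 6.46 and 6.53 on the Mst1KO S1_S2 arrays, 2 of which were above the negative controls, and 8.30, 8.18, 8.62, 8.93 and 8.51 on the Mst1KO S3 arrays. The WT arrays started from the same range (6.28 to 7.25) and reached 9.84 to 11.17, so that no Mst1KO S3 array came up to the lowest WT S3 array. The change was 1.88 ± 0.24 in Mst1KO and 4.00 in WT. The difference of -2.11 (95% interval -2.76 to -1.46) passed (limma adjusted p = 0.0058) and withstood the omission of any 1 array.

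**Figure D3:**
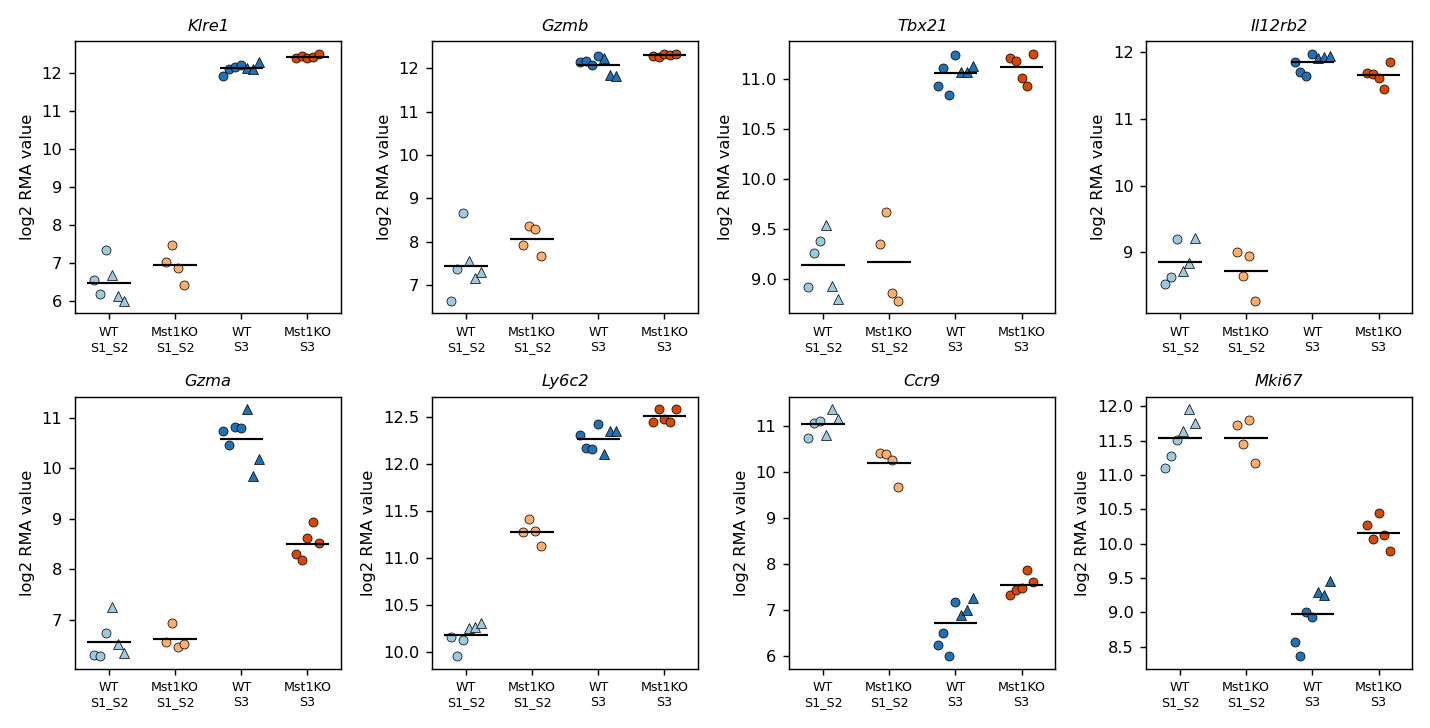
Log2 RMA level of 8 genes on each WT and Mst1KO array by stage; circles are first-run and triangles second-run arrays, and black lines are group means. Klre1, Gzmb, Tbx21 and Il12rb2 reach similar S3 levels in both genotypes, Gzma stays below WT at S3, Ly6c2 starts higher and Ccr9 lower at S1_S2 in Mst1KO, and Mki67 stays above WT at S3.

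Genes of the NKT1 identity ran at nearly their WT size. Of 20 measured 17 rose and 0 fell in Mst1KO, with a median of 1.42 against 1.54 in WT. Tbx21, which encodes the NKT1 master regulator T-bet, read 9.35, 9.67, 8.86 and 8.78 at S1_S2 and 11.21, 11.18, 11.01, 10.93 and 11.25 at S3. The stages did not overlap, and the change was 1.95 ± 0.17 in Mst1KO and 1.91 in WT (difference 0.04, 95% interval -0.41 to 0.48). Il12rb2, the interleukin-12 receptor chain that T-bet cells use, read 9.01, 8.64, 8.94 and 8.27 and then 11.69, 11.68, 11.61, 11.45 and 11.85, a change of 2.94 ± 0.15 against 3.01.

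Among secreted products, Ifng, interferon gamma, read 7.88, 8.05, 7.64 and 7.77 at S1_S2 and 10.78, 10.76, 10.88, 10.89 and 10.66 at S3, both above the WT arrays of the same stage (5.78 to 7.33 and 9.18 to 10.48). Its step of 2.96 ± 0.27 differed from the WT step by -0.41 (95% interval -1.14 to 0.32). The lowest WT S1_S2 value lay below the negative control medians of those arrays (6.20 to 6.55), so the size of the WT step is less exact. Xcl1, a chemokine for cross-presenting dendritic cells, rose by 3.21 ± 0.14 (WT 3.13) and Fgl2, a fibrinogen-like protein, by 3.26 ± 0.15 (WT 3.30). Bcl2, which blocks cell death and is sustained by interleukin 15, rose by 1.71 ± 0.14 (WT 1.34), and its relative Bcl2l1, which encodes Bcl-xL, rose by 1.1 ± 0.21, a call that was lost with only the arrays that have Y-linked signal (0.90). Of the BCL2 family 4 of 14 genes rose and 0 fell. Slamf7, a receptor of the SLAM family, rose by 3.59 ± 0.25, and Il10ra, the interleukin-10 receptor chain, by 2.01 ± 0.19.

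Transcription factors of T cell lineages changed in both directions. Of 23 measured 8 rose and 9 fell in Mst1KO, against 9 and 9 in WT. Zbtb16, which encodes PLZF, the factor that sets the innate program of iNKT cells, read 12.50, 12.54, 12.46 and 12.48 at S1_S2 and 11.69, 11.58, 11.66, 11.58 and 11.49 at S3. The fall of 0.89 on the log2 scale (SE 0.10) lay close to the WT fall of 0.84, and the difference of -0.06 had a 95% interval from -0.33 to 0.21. Id3, an inhibitor of E proteins, changed by -1.56 ± 0.22, Rora, a factor of NKT17 cells, by -1.46 ± 0.15, and Irf4, a factor induced by T cell receptor signals, by -1.36 ± 0.20.

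NKT2 markers fell almost without exception. Of 14 measured, 13 fell in Mst1KO and 14 in WT, with medians of -1.07 and -1.14. Il4, interleukin 4, read 10.61, 10.52, 10.83 and 10.70 at S1_S2 and 9.45, 9.44, 9.30, 9.59 and 9.31 at S3. All 4 S1_S2 arrays lay below the WT S1_S2 arrays (11.22 to 11.53) and all 5 S3 arrays below the WT S3 arrays (9.69 to 10.32), while the step of -1.25 ± 0.12 differed from WT by 0.06 (95% interval -0.26 to 0.38). Il6ra, the interleukin-6 receptor, changed by -2.73 ± 0.22, Plac8, a marker of NKT2 cells, by -2.60 ± 0.33, Ccr4, a chemokine receptor, by -2.14 ± 0.24, and Il17rb, the interleukin-25 receptor, by -1.94 ± 0.28. In this order their differences from the WT step were 0.94, 0.25, 0.25 and 0.82. None passed (limma adjusted p = 0.28, 0.89, 0.84 and 0.49). Csf1, the macrophage growth factor, changed by -1.89 ± 0.26 from Mst1KO S1_S2 levels (8.99 to 9.85) that were below all WT S1_S2 arrays (10.28 to 11.79). Its difference from the WT step, 1.36, did not pass (limma adjusted p = 0.13).

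Of 18 NKT17 markers 7 fell and 0 rose in Mst1KO (median -0.65), and 6 fell in WT (median -0.55). The WT median was -0.24 with first-run arrays alone and -0.25 without WT S3 replicate 4. Il17re, an interleukin-17 receptor chain, read 10.14, 10.37, 10.34 and 10.29 at S1_S2 and 8.43, 8.43, 8.81, 9.33 and 8.80 at S3, with the highest S3 value on replicate 4, and changed by -1.53 ± 0.31. Il1r1, the interleukin-1 receptor, changed by -1.54 ± 0.36, a call that was lost with only the arrays that have Y-linked signal (-1.46). The mean of the list on the Mst1KO S1_S2 arrays (9.65 to 9.83) lay above all WT S1_S2 arrays (8.81 to 9.45). Replicate 4 stood apart among the Mst1KO S3 arrays at 9.35, against 8.86 to 8.92, and without it the Mst1KO median was -0.76.

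Early iNKT and immature thymocyte genes had 9 of 19 members lower and 3 higher in Mst1KO, and 11 lower and 3 higher in WT. Themis, a factor of thymic selection, read 10.23 to 10.34 at S1_S2 and 8.02 to 8.93 at S3, a change of -1.82 ± 0.18. Dhrs3, a retinal reductase, changed by -2.60 ± 0.25, with a difference from WT of 0.01 (95% interval -0.66 to 0.68).

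Genes of the cell cycle had smaller median falls without Mst1. Of 26 G2 and M phase genes, 23 fell in Mst1KO (median -1.17) and 26 in WT (median -1.74). Of 26 G1 to S phase genes, 16 fell and 1 rose in Mst1KO (median -0.46), against 22 and 1 in WT (median -0.94). The Mst1KO step minus the WT step was above 0 for 25 and 23 of these genes, with medians of 0.58 and 0.50, where 9650 of all 22206 clusters were above 0 and the median was -0.03. Only Mki67 among the 52 passed the test of that difference, while 18 and 12 members had an unadjusted p under 0.05 in the G1 to S and the G2 and M list. The medians stayed above 0 with first-run arrays alone (0.47 and 0.50), with only the arrays that have Y-linked signal (0.42 and 0.35), and without Mst1KO S1_S2 replicate 4 (0.45 and 0.41).

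At S3 the cell cycle genes stood higher in Mst1KO than in WT. The mean of the 52 genes was 9.29, 9.16, 9.35 and 8.79 on the Mst1KO S1_S2 arrays. First-run WT S1_S2 arrays lay at 8.82 to 9.14, below Mst1KO replicates 1 to 3 and above replicate 4, and second-run WT S1_S2 arrays at 9.43 to 9.52, above all 4. On the Mst1KO S3 arrays it was 8.32, 8.23, 8.26, 8.36 and 8.15. Every one of these lay above the WT S3 arrays of both runs (7.52 to 7.80 and 8.04 to 8.09). The negative control medians were also mostly higher there, 6.36 to 6.59 on Mst1KO S3 and 6.19 to 6.41 on WT S3 arrays. At S1_S2 they were 6.43 to 6.55 and 6.20 to 6.55. The mean of the G2 and M genes on WT S3 arrays, 6.74 to 7.42, was not far above these medians. The part of this background in the S3 gaps of cell cycle genes and fallen clusters was not tested.

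Mki67, the proliferation marker Ki-67, read 11.73, 11.45, 11.80 and 11.17 at S1_S2 and 10.27, 10.06, 10.45, 10.13 and 9.89 at S3 in Mst1KO, while the WT S3 arrays lay at 8.36 to 9.45. At S1_S2 the genotypes overlapped (WT 11.10 to 11.96), and at S3 they did not. The change was -1.38 ± 0.14 in Mst1KO and -2.52 in WT, a difference of 1.14 (95% interval 0.76 to 1.53; limma adjusted p = 0.0063) that held when any 1 array was left out but not without the run term. Cdk1, the kinase that starts mitosis, changed by -1.62 ± 0.23 against -2.67 in WT (difference 1.05, 95% interval 0.44 to 1.66, limma adjusted p = 0.20). E2f2 and E2f8, transcription factors of the cycle, changed by -1.54 ± 0.18 and -2.18 ± 0.26, with differences from WT of 1.00 and 1.04 that did not pass (adjusted p = 0.090 and 0.31). With first-run arrays alone that of E2f8 was 1.71 and passed (adjusted p = 0.035). Top2a, the topoisomerase that untangles chromosomes, changed by -1.49 ± 0.21, and Bub1, a checkpoint kinase, by -2.02 ± 0.32, with 1 of 5 S3 arrays above the negative controls. Kif15, a spindle motor, read 9.28, 9.07, 8.76 and 8.14 at S1_S2 and 7.26, 7.79, 7.29, 6.58 and 7.32 at S3, a change of -1.57 ± 0.25 (SE), and was above the controls on all 5 of these S3 arrays and on 0 of 7 in WT.

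Promoters of 4 of these cell cycle genes are shown. Motifs through which cell cycle genes are known to be switched were searched in them, and not every promoter shown held each motif. RefSeq sequences of GRCm38.p6 give the 150 bases before the listed start on the strand of the gene, with matches in capitals. The motifs searched on both strands were the E2F site (TTTGGCGC, TTTCCCGC or TTTCGCGC), the cell cycle genes homology region (CHR, TTTGAA) and the CCAAT box (CCAAT), and the matches below do not overlap each other.
Mki67, chr7:135716380-135716529, minus strand: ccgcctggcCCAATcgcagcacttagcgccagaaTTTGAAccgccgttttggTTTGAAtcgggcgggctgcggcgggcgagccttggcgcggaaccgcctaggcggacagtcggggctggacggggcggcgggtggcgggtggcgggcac
Cdk1, chr10:69352913-69353062, minus strand: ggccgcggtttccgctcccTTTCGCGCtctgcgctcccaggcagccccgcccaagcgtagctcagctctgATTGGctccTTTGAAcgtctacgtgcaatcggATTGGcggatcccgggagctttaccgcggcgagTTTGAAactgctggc
Top2a, chr11:99024190-99024339, minus strand: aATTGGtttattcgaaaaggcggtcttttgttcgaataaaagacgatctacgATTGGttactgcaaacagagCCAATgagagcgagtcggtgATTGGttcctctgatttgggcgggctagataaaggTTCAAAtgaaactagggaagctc
Kif15, chr9:122950931-122951080, plus strand: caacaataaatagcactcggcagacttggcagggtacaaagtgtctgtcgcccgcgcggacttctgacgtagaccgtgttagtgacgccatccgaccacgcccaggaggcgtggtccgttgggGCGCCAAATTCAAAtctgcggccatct
Among these windows the E2F site was found in Cdk1 and Kif15, the CHR letters in all 4, and the CCAAT letters in Mki67, Cdk1 and Top2a. Over 250 bases before the start, the E2F site was in 1.53% of 32851 promoters, in 6 of 24 promoters of G1 to S phase genes (25%) and in 1 of 22 promoters of G2 and M phase genes. The CHR letters were in 16% of all promoters, in 16.7% of the G1 to S promoters and in 36.4% of the G2 and M promoters, and the CCAAT letters in 33.8%, 70.8% and 81.8%. Promoters were matched for 22 of 26 genes of each list. These matches describe letters and not bound sites.

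Genes linked to resting cells rose in part. Of 27 quiescence-associated genes 9 rose and 4 fell in Mst1KO (median 0.14), against 15 and 4 in WT (median 0.38), where more arrays were fitted. The test of the difference passed for 1 of them, S1pr1, and the median difference was -0.14. Tsc22d3, which encodes the glucocorticoid-induced leucine zipper GILZ, read 7.93, 7.91, 7.36 and 7.23 at S1_S2 and 10.44, 10.80, 10.14, 9.62 and 9.40 at S3, a change of 2.47 ± 0.25 against 3.10 in WT (limma adjusted p of the difference = 0.56). Cdk6, a kinase of G1 entry, changed by -0.99 ± 0.22, a call that was lost with only the arrays that have Y-linked signal (-0.89). Lists of growth genes had fewer falls called in Mst1KO than in WT, where more arrays were fitted. Over all clusters 5.58% rose and 4.62% fell in Mst1KO, against 8.18% and 8.75% in WT. Glycolysis and glucose transport genes had 2 rises and 1 fall of 17 in Mst1KO and 2 and 8 in WT, amino acid transport and stress genes 1 and 1 of 20 against 2 and 8, and ribosome biogenesis genes 1 and 0 of 18 against 1 and 8. No gene of these lists passed the adjusted limma test of the difference, and the median differences were 0.24, 0.14 and 0.15. At an unadjusted limma p under 0.05 there were 5, 6 and 4 genes, beside 2107 of all 22206 clusters. The glucose transporter Slc2a3 rose by 1.5 ± 0.31 in Mst1KO.

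**Figure D4:**
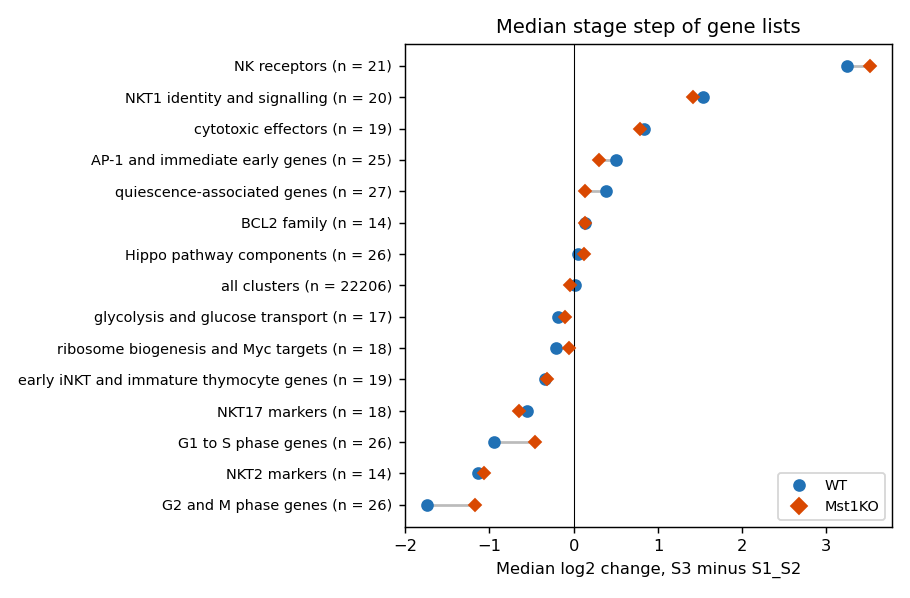
Median log2 change from S1_S2 to S3 of 14 gene lists and of all clusters, in WT (blue circles) and Mst1KO (orange diamonds), with the number of measured genes. The diamonds lie close to the circles in the NKT1, cytotoxic and NKT2 lists and farthest from them in the G2 and M phase (-1.17 against -1.74) and G1 to S phase lists (-0.46 against -0.94).

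Adhesion and homing genes included some whose step differed from WT. Of 19 integrin and adhesion genes 9 rose and 1 fell in each genotype, but these were not all the same genes, as Itga4 and Itgae show. Itgb1, the beta 1 integrin, read 9.52 to 9.91 at S1_S2 and 11.05 to 11.18 at S3, a change of 1.42 ± 0.12. Itga2, the alpha 2 integrin CD49b, read 8.29, 8.18, 8.39 and 7.50 at S1_S2 and 9.94 to 10.10 at S3, where all WT arrays were lower (8.54 to 9.54). Its change of 1.94 ± 0.18 exceeded the WT step by 1.23 (95% interval 0.74 to 1.72; limma adjusted p = 0.031). That call was lost without any of Mst1KO S1_S2 replicates 2 and 4, Mst1KO S3 replicates 1, 2, 4 and 5 and WT S1_S2 replicate 5, with adjusted p up to 0.080. Itga4, the alpha 4 integrin, rose by 1.23 ± 0.17 in Mst1KO and had 0.37 in WT (difference 0.87, adjusted p = 0.14).

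Itgae, the alpha E integrin CD103 that binds epithelium, read 10.45, 10.70, 10.55 and 10.68 at S1_S2 and 9.88, 9.96, 10.59, 10.74 and 10.36 at S3 in Mst1KO. The stages overlapped (-0.29 ± 0.15, limma adjusted p = 0.23), while WT arrays read 10.01 to 10.41 at S1_S2 and 10.74 to 11.09 at S3 and rose. The difference of -1.0 (95% interval -1.39 to -0.61; adjusted p = 0.028) was lost without any of WT S1_S2 replicate 2, Mst1KO S1_S2 replicates 2, 3 and 4 and Mst1KO S3 replicates 2 and 5, with adjusted p up to 0.080. Cd69, which retains cells in tissue, rose by 0.86 ± 0.16, a call that was lost with only the arrays that have Y-linked signal (0.83), and Cxcr3, a receptor for interferon-induced chemokines, rose by 0.90 ± 0.12 (WT 0.89). S1pr1, the receptor for egress, changed by -0.95 ± 0.13, and its Mst1KO S3 arrays (9.09 to 9.80) all lay above the WT S3 arrays (8.01 to 8.58).

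Ccr9, the receptor for the thymic chemokine CCL25, fell from 10.41, 10.38, 10.26 and 9.67 at Mst1KO S1_S2 to 7.31, 7.43, 7.47, 7.86 and 7.61 at S3. WT arrays started higher (10.74 to 11.36) and ended lower (5.99 to 7.26), without overlap at either stage. Of the 7 WT S3 arrays, 5 were above the negative controls, so the WT fall and the difference below are less exact than their errors. The change was -2.64 ± 0.20 in Mst1KO and -4.29 in WT, a difference of 1.64 (95% interval 1.12 to 2.17; limma adjusted p = 0.0058). Leaving out any 1 array did not end this call.

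The Ly6C genes, surface proteins of memory-like T cells, differed at the start of the step. Ly6c2 read 11.28, 11.41, 11.29 and 11.13 at Mst1KO S1_S2, above all WT S1_S2 arrays (9.95 to 10.30), and 12.45, 12.59, 12.48, 12.45 and 12.59 at S3, where WT lay at 12.11 to 12.43. The change was 1.23 ± 0.08 against 2.10 in WT, a difference of -0.87 (95% interval -1.09 to -0.65; limma adjusted p = 8.9e-04). Ly6c1 read 11.99 to 12.13 and 12.80 to 12.97, and its step of 0.78 ± 0.09 differed from WT by -0.81 (95% interval -1.05 to -0.57). Probes of these near-identical neighbours may share transcripts, so the pair is not 2 independent results. Neither call was lost on leaving out any 1 array.

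Other genes with a called difference had varied roles. Lmna, which encodes the nuclear lamins A and C, read 8.43, 8.42, 8.34 and 8.53 at Mst1KO S1_S2 and 8.85, 8.79, 9.16, 9.28 and 9.24 at S3, so that every S3 array was higher. It rose by 0.64 ± 0.13 in Mst1KO and fell by 0.43 on the log2 scale in WT, and the difference of 1.06 (95% interval 0.72 to 1.41; limma adjusted p = 0.0058) withstood the omission of any 1 array. The rise in Mst1KO was no longer called with only the arrays that have Y-linked signal (0.54). Pdlim1, an actin-binding adaptor, changed by -1.49 ± 0.16 against -2.73 in WT, and its Mst1KO S3 arrays (8.92 to 9.66) lay above all WT S3 arrays (7.51 to 8.33).

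Qpct, the enzyme glutaminyl cyclase, read 9.64, 9.81, 9.98 and 10.14 at Mst1KO S1_S2 and 9.14, 9.17, 9.46, 9.27 and 9.06 at S3. Its fall of 0.67 on the log2 scale (SE 0.10) contrasts with 0.11 in WT, and the S3 arrays of the genotypes overlapped (WT 9.15 to 9.36) while the S1_S2 arrays did not (WT 8.97 to 9.25). The difference was -0.78 (95% interval -1.04 to -0.52). Ppp1r3b, a subunit that directs a phosphatase to glycogen, read 7.73 to 8.07 at S1_S2 and 7.57 to 8.05 at S3, with no call in Mst1KO, while it rose by 1.26 in WT. That difference, -1.38 (limma adjusted p = 0.021), was lost only without Mst1KO S1_S2 replicate 2 (adjusted p = 0.051), among the 22 arrays left out in turn.

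**Figure D5:**
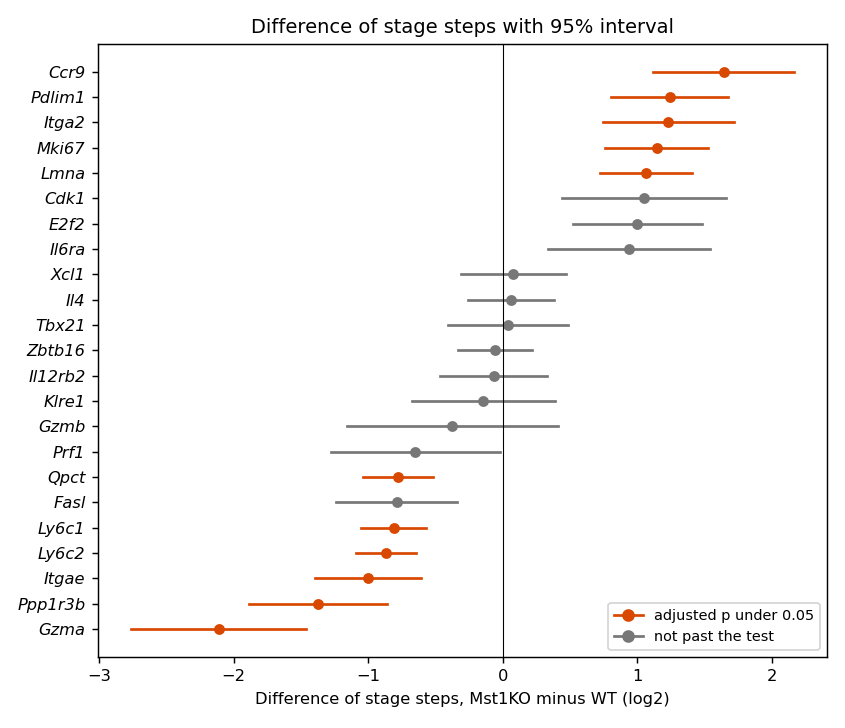
Mst1KO step minus WT step (log2) for 23 genes named in the text, with 95% intervals from the fit over 25 arrays; orange marks a limma adjusted p under 0.05 over all clusters. Ccr9, Pdlim1, Itga2, Mki67 and Lmna lie above 0 and Gzma, Ppp1r3b, Itgae, Ly6c2, Ly6c1 and Qpct below it, while Tbx21, Il12rb2, Xcl1, Zbtb16 and Il4 have intervals that span 0.

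Other lists are given by their counts. Of 25 AP-1 and immediate early genes 12 rose and 0 fell in Mst1KO, against 15 and 2 in WT. On the Mst1KO S1_S2 arrays their mean was 10.09 to 10.19, above the WT S1_S2 arrays (9.80 to 9.98). Costimulatory receptors had 5 rises and 5 falls of 15, against 6 and 6 in WT, with Tnfrsf18, which encodes GITR, at 1.31 ± 0.10 (WT 1.30). Inhibitory receptors had 3 rises and 2 falls of 13 in Mst1KO (median 0.03) and 6 and 2 in WT (median 0.24). Their mean was 7.46 to 7.65 on the Mst1KO S3 arrays and 7.62 to 8.12 on the WT S3 arrays. Of the 13 differences between the steps 2 were above 0, with a median of -0.26, and 7 had an unadjusted p under 0.05, but 0 passed the adjusted limma test. Of 26 Hippo pathway components 4 rose and 1 fell in Mst1KO and 4 rose and 2 fell in WT. YAP and TAZ target genes, known from other tissues, had 4 rises and 3 falls of 23 in Mst1KO and 4 and 5 in WT. Crim1, a growth factor binding protein of that list, rose by 2.88 ± 0.16 (WT 2.69), and Ajuba, a LIM protein that binds the Hippo kinase LATS, by 1.91 ± 0.24 (WT 1.32).

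Markers of other cell types were followed over the Mst1KO step. Of 7 measured NK cell and innate lymphocyte markers 4 rose (Itga2, Fcgr3, Irf8 and S1pr5), and the mean of the list went from 6.45 to 6.67 on the S1_S2 arrays to 7.22 to 7.63 on the S3 arrays, without overlap. Ncr1 and Klrg1, of the same list, were above the negative controls on 0 of the 9 arrays and Eomes on 3 of 5 S3 arrays. Fcgr3, an Fc receptor, read 9.19, 8.80, 7.87, 7.96 and 9.30 at S3, lower on the 2 arrays without Y-linked signal. Among 16 markers of myeloid and dendritic cells there were 3 rises and 1 fall. The genes called were Lyz2, Mpeg1, Ctss and H2-Ab1. The lysozyme gene Lyz2 rose by 1.02 ± 0.13 from S1_S2 levels at the controls on 3 of 4 arrays. The list mean was 6.48 to 6.73 at S1_S2 and 6.56 to 6.79 at S3. Cd14, Itgax and S100a8, picked from that list after their values were seen, were above the controls on 0 of the 9 arrays. The mean of 8 B cell markers was 6.30 to 6.58 at S1_S2 and 6.36 to 6.56 at S3, and Cd79b and Cd22 were at control level throughout. Double-positive thymocyte markers had 2 rises of 8, with list means of 7.55 to 7.80 at S1_S2 and 7.83 to 8.05 at S3, also without overlap. Of 3 gamma-delta T cell markers 1 fell, and their mean was 8.88 to 9.20 at S1_S2 and 8.40 to 8.81 at S3, again without overlap. The part of cells of these types in the changes of other genes was not tested.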

How the data were processed

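Transcript levels of iNKT cells sorted from mouse thymus were measured on Clariom S arrays, 4 labelled Mst1KO_S1_S2, 5 Mst1KO_S3, 6 WT_S1_S2 and 7 WT_S3, beside 3 labelled dKOMst. The authors deposited log2 values. Per the submitters' processing notes these are RMA values from Affymetrix Expression Console 1.1, and per the labels' protocols NuGEN kits served for amplification and labelling of the RNA. The values ran from 3.04 to 13.7 and were used as deposited. The sources used here give no genome build for the array annotation.

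Of 28846 items 6640 controls were left out and 22206 transcript clusters tested, 19572 of them with 1 symbol. For 55 symbols with several clusters the brightest was used. A group with no array above its median negative control has only a bound, computed from the control level. One linear model per cluster (limma 3.58.1, R 4.3.3) covered all 25 arrays, with 6 group means and an additive term for the run, set between title numbers 528 and 533, where the group labels start again (another gap in the numbers is wider), which left 18 residual degrees of freedom. Benjamini-Hochberg adjustment ran over all clusters, and calls are adjusted p under 0.05. The program chosen in second-run WT used a mean for each group in each run. Errors are SE of the fit, and intervals are 95%. The tests were tried on simulated data.

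The comparison, the gene lists and the alternatives were chosen with earlier results of these data known, so no count over a list is independent support. Leaving out predicted genes, small RNAs and olfactory receptors, named genes were the 12 largest rises and 12 largest falls in Mst1KO, the 10 largest differences of the steps in each direction, up to 6 genes called in opposite directions, from each list the 4 called members with the largest Mst1KO step and up to 3 with the largest called difference, up to 6 with the largest shortfall against WT, and Stk4, the sort markers, Zbtb16, Tbx21 and Mki67. The text describes part of these, and genes near the negative controls were among those left out. Some called differences well above the controls are not described either. They include Ccr8 (-1.55), Slc24a3 (-0.98), Prrt1 (-0.92), Vps37b (-0.66) and Smpdl3b (0.84). Other genes named are Cd3e and the defining markers of other cells, chosen after their values were seen. Cfap20dc and Ptprb passed the test of the difference but lay at control level in a compared group and are given no value. Alternatives left out the run term, kept only first-run or only Y-positive arrays, added a sex term, normalized or centred again, kept brighter clusters, weighted arrays, required a minimum fold of 1.2, let the variance follow the mean with robust moderation, fitted only the Mst1KO arrays, and left out each array in turn. Promoters came from RefSeq (GRCm38.p6).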

Additional observations from a re-analysis of the deposited data

Results flagged for a closer look

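Over 150 combinations of gene or list and Mst1KO group, 4 had an array far from the others, where chance gives about 1 in 20. Rora read 9.24 and Csf1 6.73 on Mst1KO S3 replicate 5, below the other S3 arrays (9.85 to 10.06 and 7.47 to 7.68). The mean of NKT2 markers was 11.18 on Mst1KO S1_S2 replicate 3 against 11.03 to 11.05, and that of NKT17 markers was 9.35 on Mst1KO S3 replicate 4 against 8.86 to 8.92.

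The stage step differed between Mst1KO and WT by a test of the difference itself (limma adjusted p under 0.05) for these named genes, each as Mst1KO step minus WT step on the log2 scale: Ccr9 1.64, Pdlim1 1.24, Itga2 1.23, Mki67 1.14, Lmna 1.06, Qpct -0.78, Ly6c1 -0.81, Ly6c2 -0.87, Itgae -1.0, Ppp1r3b -1.38 and Gzma -2.11. S1pr1 passed as well at 0.83 (adjusted p = 0.044) but lost the call on leaving out any of 16 of the 22 arrays. Kif15 also passed (adjusted p = 0.042), with all WT S3 arrays at the level of the negative controls, so no size is given, and lost the call on leaving out any of 12.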

How the results depend on the processing

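The Mst1KO step had 2266 calls, and 1891 to 3107 under 9 other settings, but 672 with a minimum fold of 1.2 (59.8% of them rises) and 953 with only the arrays that have Y-linked signal (55.9% rises). Leaving out 1 Mst1KO array gave 1670 to 2139 calls. The WT step took 1921 calls with first-run arrays alone, which are fewer arrays, 1160 with the minimum fold, and 3362 to 3759 without 1 WT array. Of the falling program clusters 77.7% were called in Mst1KO when the program was limited to 2-fold changes. The difference of the steps moved most: 17 calls without the run term, 10 with first-run arrays alone, 55 with array weights, 4 with the minimum fold, 23 with a sex term and 0 with only the arrays that have Y-linked signal. Leaving out 1 array gave 14 to 61 calls, lowest without Mst1KO S1_S2 replicate 2 and highest without WT S1_S2 replicate 3. The cause of these changes was not tested beyond the fewer arrays named. Among the named genes run under these settings, no called step turned its direction. No paired analysis was possible because the labels carry no replicate numbers that join the stages. The signal over background limits genes whose S1_S2 or S3 arrays lie at the negative controls. The median SE of a difference of steps was 0.155, so most differences under 0.32 could not be told from 0 even before adjustment. After adjustment over all clusters, the smallest called difference was 0.506 (Ybx3). Some larger ones did not pass, such as that of Csf1 at 1.36 (limma adjusted p = 0.13).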
